A study of Mus musculus with 2 samples.

Results

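Short-span sole circRNAs are exonic circular RNAs that are the only exonic circle listed for their host and that cover little of the genome. They were taken from a table of circRNAs in small intestinal crypts as the entries of exon type whose gene name occurs in 1 exon-type entry and whose span, from the start to the end of the back-splice, is below 4000 bases. The rule selected 321 of 1132 circRNAs. The other exon-type entries were 314 sole circRNAs of longer span and 419 circRNAs of hosts with several, and 78 entries were intronic, antisense or intergenic. The study sequenced total RNA of wild-type mouse small intestine in 1 group of 2 libraries (replicates 1 and 2). The titles name crypts and the cell type entry names stem cells, no sort, strain, age or treatment is given, and nothing says that the libraries came from separate mice, so the spread between them may be technical. The table summed to 3546 reads over back-splices for replicate 1 and to 4441 for replicate 2.

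In a circRNA the donor site at the end of an exon has joined an acceptor site that lies upstream, and the reads that cross this back-splice are counted. Circles of exons often lie between long introns, and pairing of inverted repeats in those introns is a known way in which the splice sites are brought together. The genomic span of a circle includes the introns inside it, which are usually removed, so that the RNA itself is shorter than its span. Circles that hold coding exons carry no cap and no poly(A) tail, and many are more stable than the linear mRNA of their gene.

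The name "sole" held for most entries. Of the 321, 6 had a gene name that also occurs in an entry of another type, and 11 shared a gene with another exon-type entry once strings of several names were split. Phlpp2, a phosphatase gene, is such a case, as it stands alone in 1 string (2 and 0 reads) and beside another gene in a second (0 and 2 reads). The annotation holds an identifier for each of the 321, and 317 had a protein-coding host. Both ends were splice sites of 1 annotated transcript for 311 (96.9%), against 304 of 314 long-span sole circRNAs (96.8%) and 392 of 419 circRNAs of hosts with several (93.6%). Neighbouring or antisense genes cannot be told apart from the host where the counting did not use strand, which is not stated.

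The back-splice joins of the leading circles are shown first because they are what a back-splice read has to cross and what tells each circle from its linear mRNA. They are read 5′ to 3′ on the host's strand from GENCODE M21 transcripts (mm10). The last 20 bases of the last exon are in lower case and the first 20 bases of the first exon of the circle are in capitals.
Sis, exons 5 to 6, chr3:72958113-72960367, minus strand: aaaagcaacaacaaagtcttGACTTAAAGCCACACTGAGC
Slc43a2, exons 3 to 5, chr11:75543158-75545830, plus strand: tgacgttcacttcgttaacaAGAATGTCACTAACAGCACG
Med13l, exon 2, chr5:118593333-118593570, plus strand: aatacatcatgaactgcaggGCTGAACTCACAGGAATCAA
Fam160b1, exons 6 to 7, chr19:57378549-57379175, plus strand: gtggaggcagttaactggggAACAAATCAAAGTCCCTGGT
Vapa, exons 2 to 4, chr17:65592291-65595054, minus strand: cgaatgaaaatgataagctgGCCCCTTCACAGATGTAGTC
Alg12, exons 6 to 7, chr15:88811297-88812159, minus strand: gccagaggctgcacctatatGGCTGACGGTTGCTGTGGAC
Enpep, exons 2 to 3, chr3:129319380-129321501, minus strand: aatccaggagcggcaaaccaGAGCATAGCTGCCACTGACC
Slc7a8, exons 2 to 3, chr14:54758439-54759745, minus strand: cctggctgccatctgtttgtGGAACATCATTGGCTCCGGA
Mlxipl, exons 3 to 7, chr5:135121506-135124017, plus strand: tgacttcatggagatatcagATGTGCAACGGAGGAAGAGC
Cyp4f14, exons 7 to 8, chr17:32907647-32908036, minus strand: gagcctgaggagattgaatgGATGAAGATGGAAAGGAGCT
Naprt, exons 11 to 12, chr15:75891149-75891501, minus strand: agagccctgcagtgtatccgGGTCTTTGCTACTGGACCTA

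Some of these circles are short enough to show whole, with the first and last 20 bases in capitals, which meet at the join. Med13l is the leading circle of a single exon, Sis is the circle with the highest level, and Ubl5 is among the shortest circles with reads in both libraries.
Med13l, 238 bases: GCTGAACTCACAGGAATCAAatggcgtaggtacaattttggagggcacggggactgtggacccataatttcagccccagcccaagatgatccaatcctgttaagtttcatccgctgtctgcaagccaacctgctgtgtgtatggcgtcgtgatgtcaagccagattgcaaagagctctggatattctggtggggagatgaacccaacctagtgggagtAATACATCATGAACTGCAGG
Sis, 262 bases: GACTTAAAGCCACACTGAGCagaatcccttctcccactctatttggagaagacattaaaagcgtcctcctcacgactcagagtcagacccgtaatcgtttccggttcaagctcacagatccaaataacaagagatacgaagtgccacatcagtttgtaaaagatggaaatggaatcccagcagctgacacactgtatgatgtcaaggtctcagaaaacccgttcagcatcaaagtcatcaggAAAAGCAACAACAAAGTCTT
Ubl5, exons 3 to 4, chr9:20645406-20645659, plus strand, 122 bases: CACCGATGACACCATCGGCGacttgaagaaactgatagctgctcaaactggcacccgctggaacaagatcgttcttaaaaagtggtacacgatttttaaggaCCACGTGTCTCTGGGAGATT

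At the join, the last exon base was G in 246 of the 311 circles at splice sites (79.1%), as in the joins of Med13l, Vapa and Mlxipl, against 248 of 304 long-span sole circles (81.6%). Joins such as those of Sis, Alg12 and Slc7a8 end in T. The last 2 bases were AG in 171 (55.0%), against 164 of the long-span circles (53.9%). The first base after the join was G in 161 (51.8%), against 140 (46.1%). Median GC content of the circles was 50.8% (quartiles 45.8 and 55.7%), against 47.1% (43.5 and 51.4%) in long-span sole circles and 49.1% in circles of hosts with several. Among the leaders, Sis had 44.3% and Mlxipl 58.3%. These are descriptions over circRNAs, which are not replicates, and carry no test.

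The 321 circRNAs took 1225 reads in replicate 1 and 1368 in replicate 2. These were 34.5% of the listed reads of replicate 1 (95% Clopper-Pearson interval 33.0 to 36.1%) and 30.8% of those of replicate 2 (29.4 to 32.2%). The mean share was 32.7 ± 2.65% (SD, n = 2). Long-span sole circRNAs took 19.3% and 24.7%, and circRNAs of hosts with several took 40.1% and 41.0%. A single entry moved the first of these shares. Rpph1, which gives the RNA subunit of RNase P, had 90 reads in replicate 1 against a listed 0 in replicate 2, and its ends are not splice sites. With the 311 circles at splice sites alone the shares were 31.4% (29.9 to 33.0%) and 30.4% (29.1 to 31.8%), a mean of 30.9 ± 0.687%. These shares leave out every entry of the class not at splice sites, Rpph1 among them, and are still shares of all listed reads. Intervals cover counting error only, since PCR copies of 1 molecule are not told apart.

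Sis, which encodes the brush-border enzyme sucrase-isomaltase, had 64 reads in replicate 1 and 68 in replicate 2, the highest mean level of the 321. Levels are given as CPM, the reads per 1000000 listed back-splice reads of the library. A single read thus equals 282 CPM in replicate 1 but 225 CPM in replicate 2. Sis averaged 16680 ± 1935 CPM (SD, n = 2). Slc43a2, which encodes a transporter of large neutral amino acids, had 75 and 47 reads, more in replicate 1. Med13l, which encodes a subunit of the Mediator kinase module, had 52 and 58 reads from exon 2 alone. Fam160b1 had 53 and 46 reads. Vapa, a tether gene of the endoplasmic reticulum, had 41 and 53 reads. For Sis, Med13l, Fam160b1 and Vapa no difference passed the exact binomial test between libraries (adjusted p from 0.433 to 1). That does not show equal levels, and Fam160b1 had 14946 CPM in replicate 1 against 10358 CPM in replicate 2.

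Below these 5 the read numbers dropped. Alg12, whose product adds mannose to the precursor of N-glycans, had 19 and 37 reads. Enpep, the gene of the brush-border glutamyl aminopeptidase, had 24 and 16, and Slc7a8, which encodes another neutral amino acid transporter, had 18 and 23. Mlxipl, which encodes the carbohydrate-responsive transcription factor ChREBP, had 20 and 19 reads from a circle of 5 exons (501 bases), the most exons among the 25 with the highest levels. Aagab, a gene of an adaptin-binding protein, had 10 and 26 reads. The libraries each led for some of these genes, with no common direction.

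Aldh16a1, of the aldehyde dehydrogenase family, and Igsf9, of the immunoglobulin superfamily, had 16 and 15 reads each. Ubac2 had 7 and 24 reads, and Ttll3, a tubulin glycylase gene, 18 and 9 from exon 11 alone. Foxn2, a forkhead transcription factor gene, had 11 and 14 reads from exon 2. Malrd1, known in mouse intestine for its part in bile acid regulation, had 14 and 9 reads, and Heph, which encodes the ferroxidase hephaestin of enterocyte iron export, 14 and 8. Acvr2a, an activin receptor gene, had 11 and 12 reads, Pitpnb, a phosphatidylinositol transfer protein gene, 7 and 17, and Tcf25 12 and 10. Rras2, a RAS-related GTPase gene, had 7 and 16 reads, Zfp292 5 and 18, Gsap 6 and 16, and Rock1, a protein kinase gene, 8 and 13. Apart from Rpph1, the 25 leaders each had reads in both libraries.

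**Figure D1:**
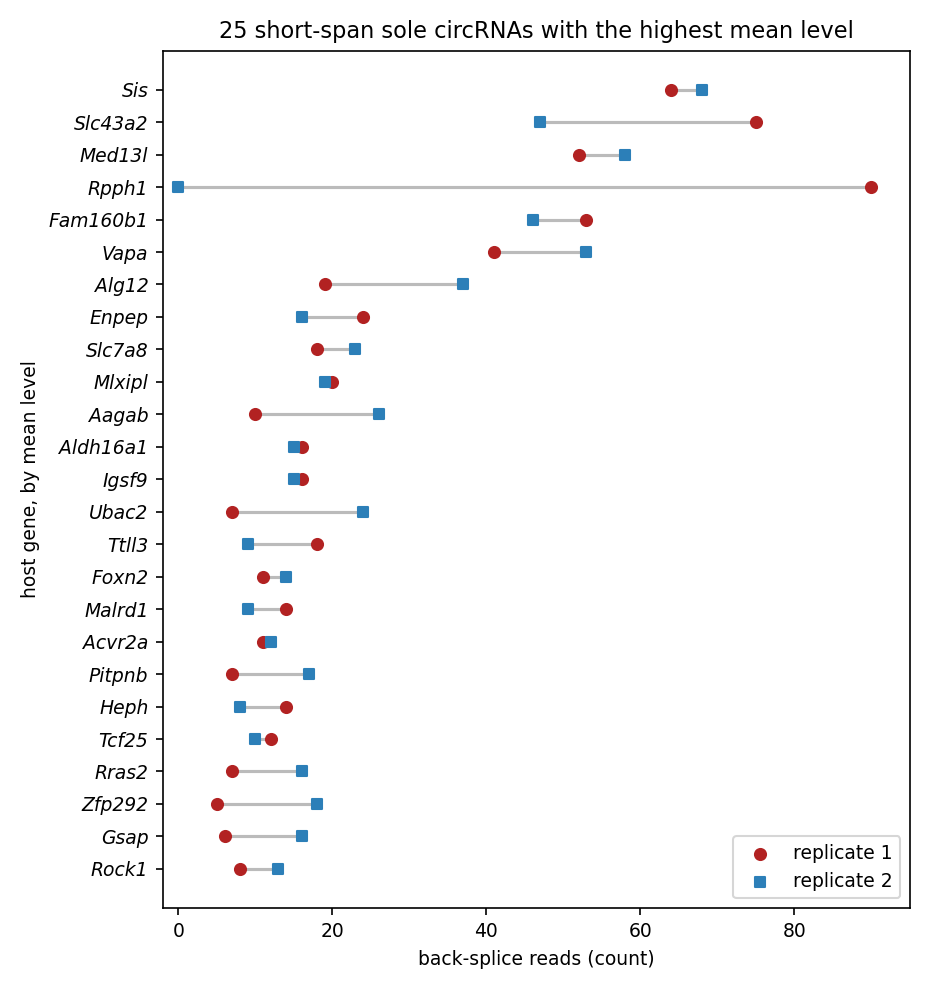
Back-splice reads (horizontal axis, counts) of the 25 short-span sole circRNAs with the highest mean level, one row per host gene, with replicate 1 as circles and replicate 2 as squares. Sis has 64 and 68 reads and Med13l 52 and 58, close together, whereas Rpph1 has 90 reads in replicate 1 and 0 in replicate 2.

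The reads were concentrated in few circles. The 10 with the highest mean level took 37.2% of the class's reads in replicate 1 and 26.8% in replicate 2, and the leading 25 took 50.4% and 43.1%. The leading 100 took 78.4% and 72.3%. The median circRNA had 3 reads over both libraries (quartiles 2 and 7), and 102 of the 321 had 2 reads, while 2 had 1 read. The median level was 423 CPM (quartiles 282 and 846), against 338 CPM (282 and 705) for long-span sole circRNAs and 423 CPM (282 and 789) for circRNAs of hosts with several. These medians lie within the worth of 1 read of each other, so no difference in the typical level was detectable at this depth.

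Replicate 1 listed 198 of the 321 and replicate 2 listed 218. Both libraries listed 95 (29.6%, interval 24.7 to 34.9%), 103 were in replicate 1 alone and 123 in replicate 2 alone. The share in both was 25.5% (20.8 to 30.7%) for long-span sole circRNAs, 34.8% (30.3 to 39.6%) for circRNAs of hosts with several and 30.5% over all 1054 exon-type entries. The 95 in both libraries held 69.0% of the class's reads and had a median of 11 reads, against 3 reads for the 226 in 1 library. With 2 reads or fewer, 0 of 104 were in both libraries, and with 3 to 4 reads 3 of 94 were. With 5 to 9 reads 39 of 66 were in both (59.1%, 46.3 to 71.0%), as were 53 of 57 with at least 10 reads (93.0%, 83.0 to 98.1%). None of the 102 circRNAs with 2 reads had 1 read in each library, and only 2 of the 321 had a listed single read in a library. A listed 0 may thus hide a single read. With so few single reads listed, circRNAs with 2 or 3 reads could hardly be in both libraries. At 5 to 9 reads, the share in both was 60.0% (45.9 to 73.0%) for long-span sole circRNAs and 78.5% (67.8 to 86.9%) for circRNAs of hosts with several.

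**Figure D2:**
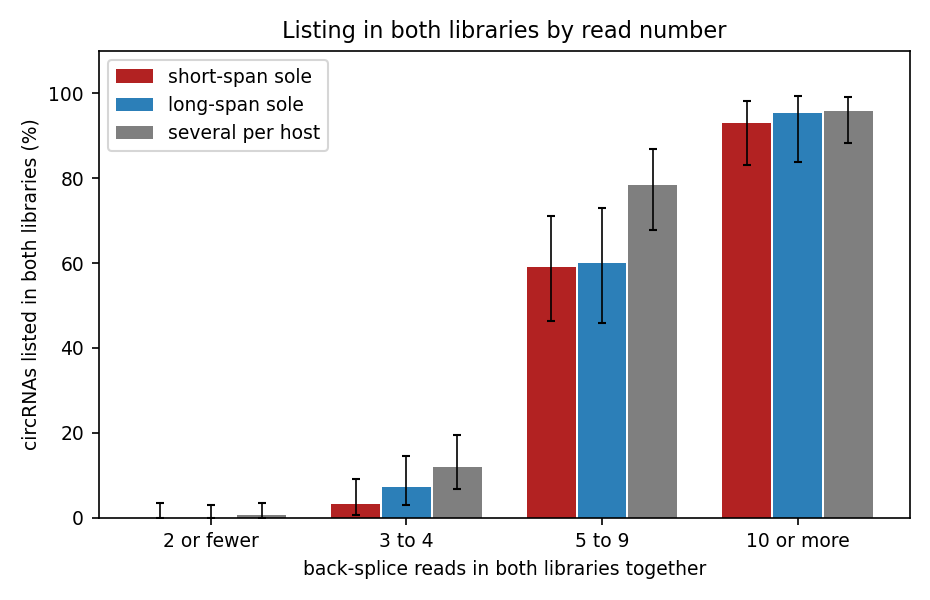
Share of circRNAs listed in both libraries (vertical axis, percent) by the number of back-splice reads in both libraries together, for short-span sole circRNAs, long-span sole circRNAs and circRNAs of hosts with several; whiskers are 95% Clopper-Pearson intervals. For the short-span class the share goes from 0% at 2 or fewer reads to 59.1% at 5 to 9 and 93.0% at 10 or more. Single reads were hardly ever listed, which limits the share at the lowest read numbers.

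Agreement of the libraries was described for circles with enough reads. Of the 53 short-span sole circRNAs with at least 10 reads that were in both libraries, 39 (73.6%) lay within 2-fold in CPM, against 29 of 40 long-span sole circRNAs (72.5%) and 58 of 69 circRNAs of hosts with several (84.1%). Foxn2, Slc7a8 and Vapa were among the closest, with SDs of 35.6, 72.7 and 263 CPM around means of 3127, 5128 and 11748 CPM. Ubac2 and Zfp292 were among the widest, at 3689 ± 2425 and 2732 ± 1869 CPM (SD, n = 2 each), with more reads in replicate 2.

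Reads differed between the 2 libraries for 5 of the 321 circRNAs (exact binomial test against the library totals, two-sided, Benjamini-Hochberg adjusted p below 0.05), beside 1.59% of all 1132 entries tested. All 5 were higher in replicate 1, where 1.15% of all entries were called, and 0 were called higher in replicate 2, where 0.442% were. At an unadjusted p below 0.05 there were 20 higher in replicate 1 and 14 higher in replicate 2, together 34 of 321, beside 9.36% of all entries. With unequal library totals, 4 and 0 reads gave an unadjusted p of 0.0389 in this binomial test (Usp32), but 0 and 4 reads gave 0.134 (Ap3b1). The directions thus do not face an equal bar at low read numbers, where single reads were also hardly ever listed. Because it sets 1 library against the other, this test compares these libraries with counting error and not any condition.

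Rpph1 had 90 and 0 reads (adjusted p = 2.07e-29). Its feature lies inside a short noncoding gene at chromosome 14, 50807500 to 50807696, and neither end is an exon edge. Cyp4f14, which encodes a cytochrome of fatty acid and leukotriene hydroxylation, had 17 and 0 reads (adjusted p = 0.000286) from exons 7 to 8. Synpo, the gene of the actin-associated protein synaptopodin, had 14 and 0 reads (adjusted p = 0.00187), and Abhd2, a hydrolase gene, had 10 and 0 (adjusted p = 0.0211). Cyp4f14, Synpo and Abhd2 are circles at annotated splice sites with no listed read in replicate 2. The test took a listed 0 as 0 reads, although it may hide a single read. Whether the calls of Rpph1, Cyp4f14, Synpo and Abhd2 would hold with a single read in replicate 2 was not tested. Slc43a2 was the single call with reads in both libraries (75 and 47, adjusted p = 0.0147), and with TMM scaling its adjusted p was 0.0526. Epcam, the gene of the epithelial cell adhesion molecule, had the most reads among circRNAs in replicate 2 alone (0 and 9) and was not called.

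**Figure D3:**
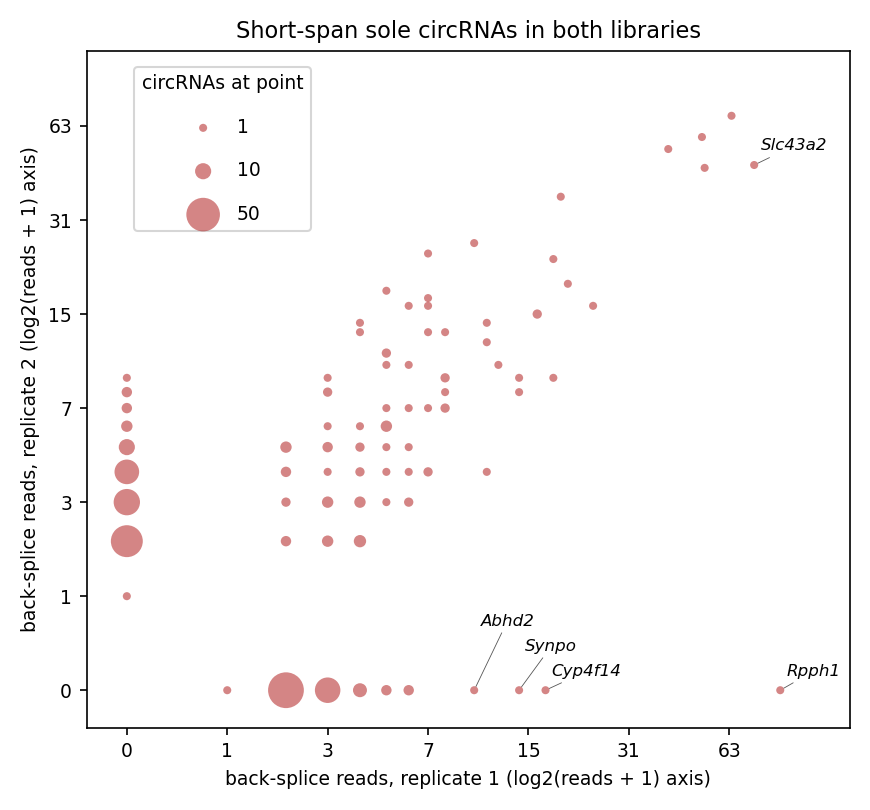
Back-splice reads of the 321 short-span sole circRNAs in replicate 1 (horizontal) and replicate 2 (vertical), both on log2(reads + 1) axes labelled in reads, with point area growing with the number of circRNAs at that pair of values. The named points are the 5 that differed; 4 of them lie at 0 reads in replicate 2, and most circRNAs with 2 or 3 reads lie on an axis.

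Circles of 2 exons were the most frequent. Among the 311 at splice sites, 50 (16.1%) held 1 exon, 167 (53.7%) held 2, 65 (20.9%) held 3 and 29 (9.32%) held 4 or more. The span limit favours few exons, so this is set beside the other classes only as a description. Long-span sole circRNAs had 0 of 304 with 1 exon, 21.7% with 2 and 39.5% with 4 or more, and circRNAs of hosts with several had 3.83%, 27.6% and 40.3%. After removal of introns the median circle measured 318 bases (quartiles 262 and 403.5), against 382.5 bases (315 and 522.75) for long-span sole circRNAs and 402 bases (301 and 527) for circRNAs of hosts with several. The median span, which the rule fixes in part, was 1436 bases against 9702 and 6534 bases.

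**Figure D4:**
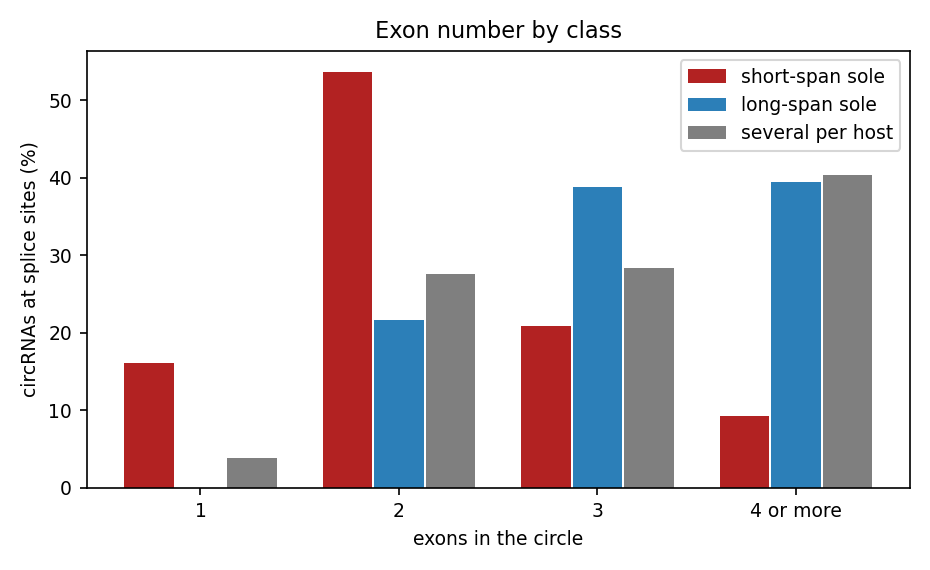
Share of circRNAs at splice sites (vertical axis, percent) by the number of exons in the circle, for short-span sole circRNAs, long-span sole circRNAs and circRNAs of hosts with several. Circles of 2 exons make up 53.7% of the short-span class, and 4 or more exons make up 9.32%, against 39.5% and 40.3% in the other classes.

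Circles of a single exon stood at the start of their genes more often than the rest of the class. Of the 50, 29 (58.0%) were exon 2, against 25.7% of circles of 2 exons that began there. After Med13l, Ttll3, Foxn2 and Synpo came Lrp6, a Wnt co-receptor gene, with 6 and 10 reads from exon 2 (394 bases). Nfix, a nuclear factor gene, had 7 and 4 reads, and Hipk3, a kinase gene whose exon 2 circle is a frequently studied circRNA, 3 and 8 (1099 bases). Smad1, which encodes a BMP signal transducer, had 3 and 6 reads. Pvt1, a noncoding gene next to Myc, had 3 and 8 reads from exon 2. Others came from later exons, such as Ttll3 (exon 11) and Zfp608 (exon 3, 6 and 5 reads). All of these except Synpo were in both libraries, as were 18 of the 50 (36.0%), against 54 of 167 circles of 2 exons (32.3%) and 4 of 29 with 4 or more (13.8%). These shares run across circRNAs and were not tested. Of the 5 longest RNAs of the class, 4 were circles of a single exon. Zfhx3, a homeobox gene, had 0 and 3 reads from exon 8 (2768 bases), and Tet3, a gene of DNA demethylation, 3 and 0 from exon 4 (2158 bases). Aftph (1955 bases, exon 2) had 0 and 2 reads, Zfp516 (1926 bases, exon 2) had 4 and 0, and Elmsan1 (1970 bases, exons 2 to 3) had 2 and 3.

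At the other end, the circle of Ube2g2, a ubiquitin-conjugating enzyme gene, measured 82 bases (0 and 2 reads), and that of Gtf3c6, a gene of an RNA polymerase III factor, 109 bases (2 and 2 reads). Ubl5, a ubiquitin-like gene, had 7 and 7 reads from 122 bases. Birc2, an inhibitor of apoptosis gene, had 2 and 0 reads from 128 bases, and Lrrc8d, a gene of volume-regulated anion channels, 2 and 0 from 145 bases. Of these 5, Ubl5 and Gtf3c6 had reads in both libraries. The shortest spans were those of Apoa4 (138 bases, 0 and 2 reads), Alpi (142 bases, 11 and 4 reads) and Lrrc8d (145 bases).

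Apoa4, an apolipoprotein gene, and Alpi, the intestinal alkaline phosphatase gene, belong to the 10 entries that were not at splice sites. In Rpph1, Alpi, Apoa4 and Gm26917 neither end was an exon edge, and in the other 6, among them Arhgef2, Clec2d, B3gnt3, Telo2 and Cwf19l2, a single end was. Together these 10 had 111 reads in replicate 1 and 16 in replicate 2. Alpi was the only one of the 10 with reads in both libraries. B3gnt3, Clec2d, Telo2, Cwf19l2 and Gm26917 were named after their values were seen.

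Introns on either side of the circles were shorter than in the other classes. The intron before the circle had a median of 5146 bases (quartiles 1656.5 and 17616), against 13431 bases for long-span sole circRNAs and 12526 bases for circRNAs of hosts with several. The intron after it had a median of 4439 bases (1659 and 12303.5), against 10208 and 9751 bases. Both flanking introns reached 10000 bases for 73 of 311 (23.5%), as for Med13l (32475 and 77442 bases) and Slc7a8 (21434 and 20773 bases), against 40.1% and 36.7% in the other classes. The rule did not use these introns, but the hosts were also shorter, with a median gene length over circles of 60198 bases against 92836.5 and 102252 bases. In the class of hosts with several, a host enters these medians with each of its circles. The lengths of the flanking introns went together within the class (Spearman rank correlation 0.74 across 311 circles, with both introns of a circle taken from the same host).

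Set against their own host, the flanking introns were mostly long. Both were longer than the median of the host's introns outside the circle for 214 of 303 circles with such introns (70.6%), against 236 of 296 long-span sole circles (79.7%) and 283 of 380 circles of hosts with several (74.5%). Neither was longer for 33 (10.9%), against 6.76% and 6.32%. Both were also longer than the longest intron inside the circle for 209 of 261 circles with more than 1 exon (80.1%), a share that the span limit favours. Sis went the other way against the intron inside its circle. That circle is flanked by 645 and 1814 bases and holds an intron of 1993 bases. The median of the other introns of Sis outside the circle was 1318.5 bases, longer than the intron before the circle but shorter than the intron after it.

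**Figure D5:**
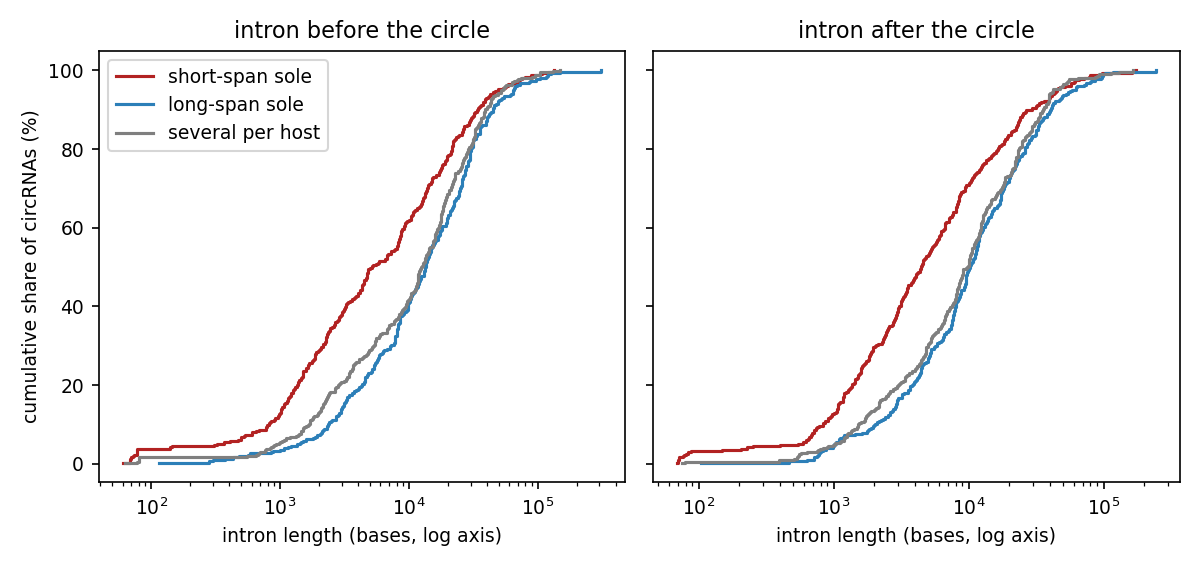
Cumulative share of circles at splice sites (vertical axis, percent) by the length of the intron before (left) and after the circle (right) on a log axis in bases, for short-span sole circRNAs, long-span sole circRNAs and circRNAs of hosts with several. The short-span curve lies to the left, with medians of 5146 and 4439 bases against 13431 and 10208 bases in long-span sole circRNAs.

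Some circles lay between very short introns. Both flanking introns were below 100 bases for 9 of 311 circles (2.89%), against 0 of 304 long-span sole circles and 2 of 392 circles of hosts with several. Naprt, a gene of NAD synthesis, was the one of the 9 with reads in both libraries (4 and 5), with introns of 78 and 88 bases. Hirip3 had 0 and 6 reads, Zbtb48 5 and 0, and Vars, the valyl-tRNA synthetase gene, 0 and 4. Zfp276 had 3 and 0 reads, Gnptg 0 and 3, Map4k2 and Slc6a8 2 and 0 each, and Sf3a2, a splicing factor gene, 0 and 2. These 9 were singled out after their values were seen, and their median of 3 reads equals that of the class.

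Level and structure were weakly related within the class. Across the 311 circles, the Spearman rank correlation of the mean level was 0.13 with the intron before the circle, 0.17 with the intron after it, -0.025 with span, 0.031 with spliced length and 0.0065 with GC content. These values describe circRNAs that share 2 libraries and many tied low counts. Circles with both flanking introns of at least 10000 bases had a median of 4 reads and 41.1% were in both libraries, while circles with both below 1000 bases had a median of 3 reads and 26.1% in both. Circles starting at exon 2 numbered 98 (31.5%), with 39.8% in both libraries, against 25.8% of those starting later. Starts at exon 2 made up 44.7% of long-span sole circles and 30.1% of circles of hosts with several.

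Most circles held coding sequence alone. This was so for 257 of 311 (82.6%), against 76.3% of long-span sole circles and 84.9% of circles of hosts with several. A further 46 held coding and untranslated bases, 4 lay in untranslated exons and 4 had no annotated coding sequence, Pvt1 among them. The annotated start codon lay inside 44 of 307 circles (14.3%), such as those of Igsf9, Foxn2 and Hipk3. This share lay between the 64 of 302 long-span sole circles (21.2%) and the 45 of 388 circles of hosts with several (11.6%). The length was a multiple of 3 for 105 circles (33.8%), against 33.9% and 32.7% in the other classes. Slc7a8 and Mlxipl were among these 105, and Sis, Med13l and Vapa were not.

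Near the span limit, read numbers on either side were low, with 3 or 4 just inside it and 1 or 2 just outside. Just inside it were Ap3b1 (3902 bases) and Prkca (3899 bases) with 0 and 4 reads each, Copb1 (3822) and Cubn (3779) with 3 and 0 each, and Mvp (3733) with 0 and 3. Just outside were the sole circRNAs of Nf1 (4004 bases, 0 and 1 reads), Arfgap3 (4091, 2 and 0), Pik3c2b (4207, 2 and 0), Nktr (4250, 0 and 2) and Edc4 (4330, 2 and 0). Each of these 10 was in 1 library. Within the class, 128 circRNAs spanned below 1000 bases and 32.8% of them were in both libraries, against 22.2% of the 45 with spans of 3000 bases or more.

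Hosts were grouped by lists of cell type markers, pathways and functions. The absorptive enterocyte list had the most reads. Of its 28 genes 7 hosted a circRNA of the class, with 195 reads in replicate 1 and 160 in replicate 2 and a median of 40 reads, against a median of 3 over all 321. Besides Sis, Slc43a2, Enpep and Slc7a8 these were Alpi, Apoa4 and Cubn, the cubilin gene (3 and 0 reads). Of the 7, 5 were at splice sites, and Alpi and Apoa4 were not. Slc43a2 was higher in replicate 1 and the other 6 were not called. The list was made with earlier results of these data known, so its reads are no independent evidence. The immune list had 2 of 21, Adgre1, a macrophage marker gene, with 4 and 13 reads and Bcl11b, a T cell factor gene, with 0 and 4. The lists of stem (25 genes), proliferating (26), Paneth (9), goblet (12), enteroendocrine (18), tuft (14) and stromal, muscle, endothelial and glial cells (26) had 0 hosts in the class. At most, a circRNA at splice sites shows that its gene was transcribed and circularised. Linear levels are not analysed here, so cell content cannot be read from these lists.

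Signalling genes were present at low read numbers. Of 29 genes of EGF receptor, MAPK and PI3K signalling 6 were hosts, with 10 and 9 reads in all. Pik3ca, a catalytic PI3-kinase subunit gene, had 0 and 4 reads, and Egfr, the EGF receptor gene, 3 and 0. Acvr2a and Smad1 were the 2 hosts among 37 genes of Notch, BMP, TGF-beta and Hippo signalling, and Lrp6 was the single host among 38 Wnt genes. All 3 were in both libraries. None of the 9 differed between the libraries.

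Among functional lists, RNA-binding, splicing and mRNA decay genes had 3 hosts of 45 genes, each in both libraries. Cnot4, a ubiquitin ligase gene of the CCR4-NOT complex, had 5 and 10 reads, Dcp2, the decapping enzyme gene, 5 and 6, and Smg1, a kinase gene of nonsense-mediated decay, 6 and 4. Chromatin regulators had 6 of 59, led by Nsd2, a histone methyltransferase gene (5 and 11 reads), Kmt2a (0 and 4), Dnmt3a and Tet3 (3 and 0 each), and only Nsd2 was in both libraries. Ubiquitin ligases and deubiquitinases had 5 of 50, among them Usp32 (4 and 0) and Cul1 (3 and 0), and ubiquitin specific peptidases added Usp30 (3 and 5) and Usp12 (5 and 0). Genes of membrane contact, traffic and lipid metabolism had 5 of 53, led by Vapa and Pitpnb, with Copb1 next. The list of mitochondrial enzymes and transport had 1 of 42, Dlst (3 and 0), a subunit gene of the 2-oxoglutarate dehydrogenase complex. The lists are not complete. Ndufs1, a gene of mitochondrial complex I (6 and 7 reads), and Kdm5c, a histone demethylase gene (7 and 13), are in the class but on none of them.

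Solute carrier genes gave 9 circRNAs of the class, of which Slc43a2 and Slc7a8 were in both libraries, and the other 7 had 2 to 4 reads in 1 library. Zinc finger genes named Zfp gave 5, led by Zfp292, Zfp608 (6 and 5 reads) and Zfp516. Genes named Arhgap or Arhgef gave 1, Arhgef2 (4 and 0). Of 37 often reported circRNA hosts, Nfix, Hipk3 and Pvt1 were in the class and each was in both libraries, while 8 circRNAs of this list were long-span sole circRNAs and 11 came from hosts with several. Of all these lists, the enterocyte and solute carrier lists held a circRNA that differed between the libraries, Slc43a2 in both cases.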

How the data were processed

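Total RNA of wild-type mouse small intestinal crypts was made into 2 libraries, per the labels' protocols. Coordinates are on mm10, per the submitters' processing notes. How circRNAs were called, with which aligner, filters and strand setting, is not stated in the labels. The deposited counts were whole numbers of back-splice reads per circRNA and library, per the file headers. The authors also deposited a normalised signal named CPM, used here as an alternative only. There were 0 columns of sample values that went unused.

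Levels were computed as reads per 1000000 listed back-splice reads. The total of listed reads is not the sequencing depth, which is not analysed here. Each circRNA's reads were tested against the library totals with an exact two-sided binomial test in scipy 1.17.1. Benjamini-Hochberg adjustment ran over all 1132 circRNAs, with a threshold of 0.05. The procedure was also run on simulated counts that were deeper than these libraries, had large planted changes and varied by counting error alone. That simulation does not show how the test behaves at the low read numbers here. Intervals are 95% Clopper-Pearson intervals. TMM factors came from edgeR 4.0.16 and size factors from DESeq2 1.42.0.

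A circRNA was placed at splice sites when its ends were an inner exon start and an inner exon end of 1 transcript of a named gene in GENCODE M21, which is on the same build. Where several transcripts fitted, a protein-coding one of the basic set with the longest coding sequence was taken. Sequences were read from the GENCODE M21 transcripts. Intron and genome sequence was not used here. Circles of chromosome 18 entered the GC contents and the base shares at the join, but their sequences are not printed.

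CircRNAs were named if they were among the 25 with the highest mean level, differed between the libraries, had the 5 highest read numbers among those in 1 library, lay among the 5 on either side of the span limit, had the 3 shortest spans, were among the 5 longest or shortest circles, or led a gene list with up to 3 entries. Any other circRNA named was chosen after its values were seen. A few circRNAs within the rule are not reported here. The members and lists were chosen with earlier results of these data known. Alternatives covered the span limit, the definition of a sole circRNA, a read minimum, the scaling, the splice-site requirement and each library left out.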

Additional observations from a re-analysis of the deposited data

How the results depend on the processing

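Changing the span limit, the definition of a sole circRNA or the splice-site requirement kept the share listed in both libraries between 28.6% and 30.8% and the median circle at 311 to 318 bases. With a span below 3000 bases the share of all reads was 29.5%, and restricting to splice sites set the share at splice sites to 100% by construction. A minimum of 5 reads left 123 circRNAs, of which 74.8% were in both libraries, with a median of 1127 CPM and 26.1% of all reads. The fewer and more abundant circRNAs follow from the minimum itself. The median level was 408 CPM with TMM scaling, 406 CPM with DESeq2 size factors and 408 CPM with the deposited normalised values. Leaving out 1 library at a time left 198 to 218 circRNAs, with a median of 846 to 901 CPM, because circRNAs absent from the remaining library dropped out. The share listed in both libraries had no value with 1 library. The 71 named levels moved by a factor of 0.960 to 1.04 under the 3 scaling alternatives, and by a factor of 0 to 2 when either library was left out, since a circRNA of 1 library then falls to 0 or doubles. Of the 5 circRNAs that differed between the libraries, 4 remained with TMM scaling, which gave Slc43a2 an adjusted p of 0.0526. The same number of 4 was found when circRNAs at splice sites alone were tested, an alternative chosen after seeing the data, which takes out Rpph1. The planned search for reverse complementary matches between flanking introns was not run, since genome sequence was not used here. No paired analysis was possible because the labels give 1 group. With a median of 3 reads per circRNA, counting error limits every single level.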
